A study of Caenorhabditis elegans with 16 samples.

Results

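Caenorhabditis elegans embryos that carried edc-3(ok1427) together with edc-4(qe49) were compared with embryos that carried edc-4(qe49) alone, across all genes measured. The double mutant (strain FD146) and the edc-4 mutant (strain FD135) shared edc-4(qe49), so the comparison isolates what the edc-3 allele added in a background that already lacked normal edc-4. The members were chosen by genotype label: 4 double mutant and 4 edc-4 libraries, 8 of the 16 libraries of the series, each set numbered 2 to 5. The other 8 libraries, edc-3(ok1427) (strain RB1311) and wild type (strain N2, called WT), show the same allele in a background with normal edc-4, and share no library with the main comparison. All 4 genotypes were grown at 16 °C, and RNA came from pooled embryos of mixed stages. Strain names are those of the sample labels; the study's design text gives FD135 for the double mutant as well. Each genotype was 1 strain, so any other difference between strains cannot be told apart from the alleles.

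Decapping removes the 5′ cap of an mRNA and exposes it to degradation from that end. DCAP-2 is the decapping enzyme and DCAP-1 its activator. The products of edc-3 and edc-4 enhance decapping: both are scaffold proteins that bring the enzyme together with its partners, such as the RNA helicase CGH-1, and both are found in the cytoplasmic granules called processing bodies. Early embryos run on mRNAs that the oocyte supplied, many of which are destroyed as the embryo's own genes switch on.

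The libraries held 40.8 ± 3.556 M counts in the double mutant and 46.04 ± 7.43 M in edc-4 (SD, n = 4 each). Nuclear ribosomal RNA took 13.9 to 19.9% of the double mutant counts and 13.02 to 15.1% of the edc-4 counts. Markers of embryonic tissue were present in all 8 libraries: the mean log2 level in CPM (counts scaled to a common library size) of 39 muscle genes was 7.02 ± 0.37 in the double mutant and 7.14 ± 0.44 in edc-4. Of 74 listed sperm genes 8 were tested, and their sum reached only 3.40 to 4.01 CPM in the double mutant and 3.20 to 4.02 CPM in edc-4. Of 6 vitellogenins, made by the adult intestine, only vit-1 was tested. It measured 0.885 to 2.22 CPM in the double mutant and 0.577 to 1.87 CPM in edc-4. The untested members did not pass the filter on low counts. The libraries numbered 4 stood apart in both genotypes, with the highest early zygotic and the lowest muscle levels: mean log2 CPM of 49 early zygotic genes was 4.27 in double mutant replicate 4 and 3.60 to 3.81 in the other double mutant libraries, against 4.18 in edc-4 replicate 4 and 3.38 to 3.82 in the other edc-4 libraries. Calls in the double mutant against edc-4, list medians and several genes for which replicate 4 was the odd library are given with and without the libraries numbered 4. That setting left out the library numbered 4 of every genotype, edc-3 and WT included. In edc-3, replicate 4 also had the highest early zygotic level, 3.97. WT replicate 4 lay at the opposite end, at 3.13, where the other WT libraries held 3.52 to 3.76. In RNA from whole embryos, fewer cells of a type and less RNA per cell cannot be told apart.

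The 2 targeted transcripts checked the labels. The edc-4 transcript stood at 27.1, 30.98, 20.4 and 25.96 CPM in double mutant replicates 2 to 5, against 29.4, 35.3, 30.5 and 32.4 CPM in edc-4, where the 4 edc-3 libraries averaged 176 ± 22.8 CPM and the 4 WT libraries held 139 to 183 CPM. Both strains labelled edc-4(qe49) were thus low, with means of 26.1 ± 4.37 CPM in the double mutant and 31.9 ± 2.62 CPM in edc-4, and 168 ± 20.5 CPM in WT (SD, n = 4 each). The difference between them was −0.30 on the log2 scale, with overlapping libraries (exact two-sided permutation test, p = 0.0857, n = 4 each; the smallest this design allows is 0.0286).

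The edc-3 transcript measured 69.4, 65.0, 82.5 and 74.3 CPM in the double mutant, against 78.6, 87.9, 116 and 87.3 CPM in edc-4. The libraries overlapped, and the difference of −0.34 on the log2 scale did not pass (exact two-sided permutation test, p = 0.0571, n = 4 each). In the fit across all genes with the early zygotic and muscle levels of each library as a covariate, an alternative setting, it passed at log2 −0.40 (edgeR quasi-likelihood test, adjusted p = 0.0335). In the other background edc-3 averaged 62.3 ± 5.55 CPM in edc-3(ok1427) and 85.4 ± 11.5 CPM in WT (SD, n = 4 each), where the edc-3 libraries (57.4 to 69.3 CPM) lay below the WT libraries (70.8 to 97.8 CPM). Counts are per whole gene, so these levels do not show whether the remaining transcript lacks sequence, and they do not check the edc-3 label by themselves.

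Of 16880 genes tested, 5 passed an adjusted p of 0.05 in the double mutant against edc-4 (edgeR's quasi-likelihood test, Benjamini-Hochberg adjusted), which is 0.0296% of the genes. In the double mutant chs-1, egg-2 and pals-26 rose (0.0178%), and lmd-1 and F59C6.15 fell (0.0118%). The 4 double mutant libraries did not overlap the 4 edc-4 libraries for any of the 5, which follows closely from how the 5 were chosen. Of all tested genes, 2.1% did not overlap. At an unadjusted p under 0.05, 474 genes stood out (2.81%), 271 higher (1.61%) and 203 lower (1.2%). DESeq2 called 11 genes, all 5 among them.

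Genes that build the eggshell or sit on the oocyte surface included 2 of the 3 genes that rose. The first was chs-1, the chitin synthase that makes the chitin layer of the eggshell (chromosome I, 7554855 to 7559916, plus strand, WBcel235). It stood at 86.9, 86.5, 84.2 and 91.2 CPM in double mutant replicates 2 to 5, against 15.9, 22.001, 22.5 and 15.7 CPM in edc-4. All 4 double mutant libraries lay within a narrow band far above all 4 edc-4 libraries. The rise was 4.59-fold (log2 2.198, SE 0.26, adjusted p = 0.000801), and it was called without the libraries numbered 4 (log2 2.29). The end of chs-1 overlaps the start of T25G3.3 on the same strand, a gene that averaged 94.5 ± 12.2 CPM in the double mutant and 93.1 ± 13.2 CPM in edc-4 and did not pass.

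The oocyte membrane proteins EGG-1 and EGG-2 are paralogs with LDL-receptor repeats that act redundantly in fertilization. The egg-2 transcript (chromosome III, 7058527 to 7060583, minus strand) measured 29.01, 27.03, 36.8 and 25.205 CPM in the double mutant, against 6.38, 11.1, 12.4 and 7.10 CPM in edc-4. It rose 3.19-fold (log2 1.67, SE 0.27, adjusted p = 0.0266). This call was close to the threshold: it was lost when any 1 library other than edc-4 replicate 4 was left out (adjusted p up to 0.22), while the log2 difference remained between 1.52 and 1.85 under every alternative tried. It was called without the libraries numbered 4 (log2 1.71).

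The paralog egg-1 held 26.5, 23.5, 20.7 and 29.2 CPM in the double mutant, against 7.63, 11.6, 7.42 and 7.38 CPM in edc-4. The groups did not overlap, but the log2 difference of 1.55 (SE 0.34) did not pass over all genes (adjusted p = 0.419). It overlaps an annotated gene on the opposite strand, and how strand was used in counting is not given in the sources used here.

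**Figure D1:**
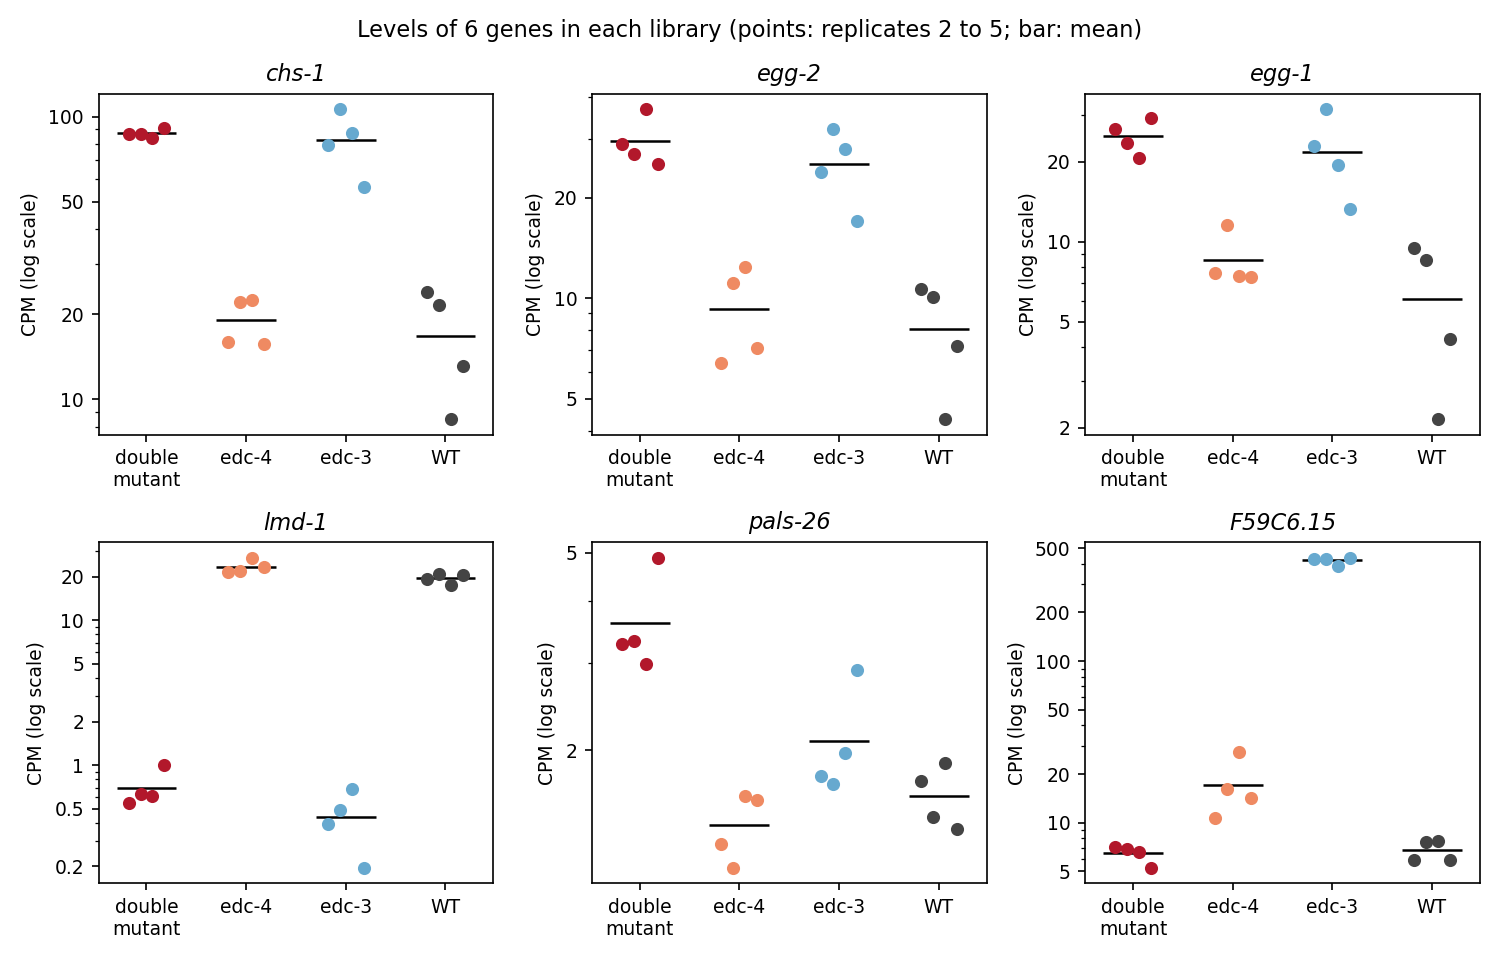
Levels of 6 genes in CPM on a log axis, 1 point per library in the order of replicates 2 to 5, with a bar at the mean, for the double mutant, edc-4, edc-3 and WT. The chs-1, egg-2 and egg-1 points of the double mutant lie above those of edc-4, as those of edc-3 lie above those of WT, lmd-1 is low in both strains with edc-3(ok1427), and F59C6.15 is high in edc-3 alone.

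Other members of the same list were given as values, having been named after their values were seen, and none of them passed. The transcript of perm-1, needed for the permeability barrier of the eggshell, measured 6.69, 6.75, 6.22 and 7.27 CPM in the double mutant, against 2.11, 4.45, 3.33 and 2.41 CPM in edc-4 (log2 1.13, SE 0.31). That of cbd-1, a chitin-binding eggshell protein, measured 504, 559, 236 and 436 CPM in the double mutant, against 192, 259, 150 and 192 CPM in edc-4 (log2 1.13, SE 0.37), so that double mutant replicate 4 fell below edc-4 replicate 3. Without the libraries numbered 4 the log2 difference was 1.21 for cbd-1 and 1.19 for perm-1. The cytochrome P450 genes cyp-31A2 and cyp-31A3, which serve lipid production for the eggshell, had log2 differences of 0.99 (SE 0.25) and 0.63 (SE 0.22). They are near-identical copies, so reads may have been split between them.

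Among the 21 tested eggshell and oocyte surface genes, 2 rose, none fell and 19 did not pass, and 16 had a positive log2 difference with a median of 0.09 (0.12 without the libraries numbered 4). Over all tested genes, 47.5% were positive and the median was −0.01. An unadjusted p under 0.05 was reached by 7 members, each of them higher in the double mutant: chs-1, egg-2, egg-1, cyp-31A2, perm-1, cbd-1 and cyp-31A3. Of all tested genes, 1.61% were higher at that threshold. The chondroitin proteoglycan genes cpg-1 and cpg-2 averaged 125 ± 48.2 and 46.3 ± 33.04 CPM in the double mutant and 175 ± 47.8 and 62.3 ± 17.95 CPM in edc-4 (log2 −0.48, SE 0.36, and −0.43, SE 0.40). Double mutant replicate 5 held 95.4 CPM of cpg-2 and the other double mutant libraries 24.4 to 34.5 CPM, against 49.8 to 88.9 CPM in edc-4. The pseudophosphatase genes egg-4 and egg-5 had log2 differences of 0.00 (SE 0.30) and 0.06 (SE 0.31), and egg-3, needed to hold CHS-1 at the oocyte cortex, of 0.24 (SE 0.29).

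Both gfat-2, which encodes an enzyme of the first step of the hexosamine pathway, and gna-2, which encodes the acetyltransferase of a later step, feed the substrate of chitin synthase. The gfat-2 transcript stood at 4.46, 3.95, 3.57 and 8.57 CPM in the double mutant, against 2.51, 2.79, 2.23 and 2.13 CPM in edc-4, without overlap (log2 1.09, SE 0.27, adjusted p = 0.814; 0.72 without double mutant replicate 5). The gna-2 transcript averaged 31.8 ± 5.19 CPM in the double mutant and 32.3 ± 9.40 CPM in edc-4 (log2 −0.02, SE 0.26).

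Of 20 oocyte maturation and yolk uptake genes, none passed, 16 had a positive log2 difference and the median was 0.12 (0.17 without the libraries numbered 4). The largest was rme-2, the yolk receptor of the oocyte, at 58.6, 58.1, 27.8 and 53.3 CPM in the double mutant, against 16.1, 25.7, 13.2 and 14.3 CPM in edc-4 (log2 1.51, SE 0.40). The next was lin-41, which represses mRNAs in growing oocytes, at 50.8, 48.0, 20.3 and 44.1 CPM in the double mutant, against 15.8, 23.7, 13.3 and 12.4 CPM in edc-4 (log2 1.32, SE 0.38). For both transcripts replicate 4 was the lowest double mutant library. It lay above every edc-4 library for rme-2 and below edc-4 replicate 3 for lin-41. Without the libraries numbered 4 the log2 difference was 1.59 for rme-2 and 1.45 for lin-41, and neither passed.

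The translational regulators puf-5 and cpb-1 had log2 differences of 0.69 (SE 0.30) and 0.70 (SE 0.31). The zinc finger regulators oma-1 and oma-2, which act in the same oocytes, averaged 76.2 ± 4.85 and 58.02 ± 4.63 CPM in the double mutant and 71.9 ± 11.2 and 51.1 ± 10.3 CPM in edc-4 (log2 0.09, SE 0.25, and 0.18, SE 0.32). Of 15 RNA-binding regulators of the early embryo none passed, 13 were positive and the median was 0.10, and 0.19 without the libraries numbered 4. In that list nos-1, a Nanos homolog, averaged 19.8 ± 1.64 CPM in the double mutant and 13.3 ± 2.01 CPM in edc-4 without overlap (log2 0.58, SE 0.23). The maternal regulators mex-5 and pos-1 had log2 differences of 0.12 (SE 0.29) and −0.11 (SE 0.28). Summed over the oocyte list, levels were 1548 to 1707 CPM in the double mutant and 1333 to 1547 CPM in edc-4. Over the eggshell list the sums were 2092, 2199, 1549 and 2118 CPM in the double mutant and 1663, 1917, 1494 and 1537 CPM in edc-4. Replicate 4, with the highest early zygotic level, had the lowest eggshell sum in both the double mutant and edc-4. This did not hold in the other genotypes. In edc-3, replicate 4 had the highest early zygotic level and a sum of 1995 CPM, and replicate 5 the lowest sum, 1476 CPM. In WT, replicate 4 had the lowest early zygotic level and the lowest sum, 1197 CPM. With the difference between the scaled early zygotic and muscle levels of each library as a covariate, chs-1 had a log2 difference of 2.15 and egg-2 of 1.57, both called.

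**Figure D2:**
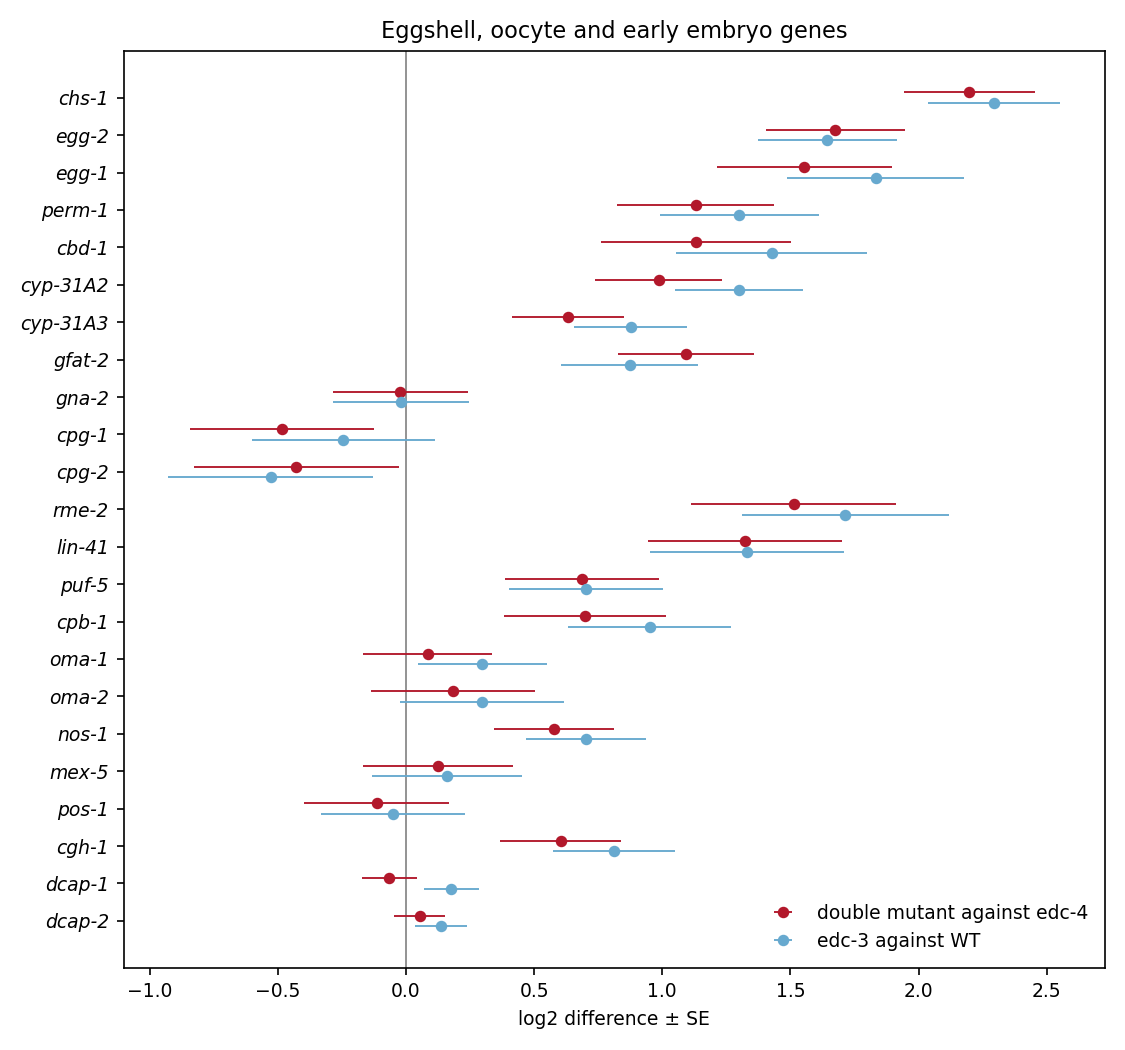
Log2 differences with SE for 23 eggshell, oocyte, early embryo and decapping genes in the double mutant against edc-4 and in edc-3 against WT, 4 against 4 libraries each. In both comparisons chs-1 lies furthest to the right, and egg-2, egg-1 and rme-2 lie between 1.5 and 1.84, while gna-2, pos-1, oma-2 and dcap-2 lie near 0.

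The transcript that fell most was lmd-1, which encodes a protein with a LysM domain (chromosome I, 8609921 to 8611066, plus strand). It was counted 22, 24, 22 and 44 times in double mutant replicates 2 to 5, against 974, 1098, 989 and 1255 times in edc-4. Scaled, this was 0.545, 0.628, 0.608 and 1.005 CPM in the double mutant, against 21.4, 22.001, 27.2 and 23.5 CPM in edc-4. The double mutant mean was 2.96% of the edc-4 mean (log2 −5.06, SE 0.25, adjusted p = 1.44e-09), and the gene was called under all 17 settings tried. In the other background it averaged 0.442 ± 0.204 CPM in edc-3 and 19.7 ± 1.55 CPM in WT.

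This gene lies 4.76 kb beyond the end of edc-3 on the same chromosome (edc-3 at 8602125 to 8605162, plus strand). The genes between them did not pass: F43G9.13 had a log2 difference of 0.13 (SE 0.17) and idha-1, a subunit of the mitochondrial isocitrate dehydrogenase, of −0.13 (SE 0.13). F43G9.4, which overlaps the end of lmd-1 on the other strand, averaged 26.3 ± 3.85 CPM in the double mutant and 21.98 ± 4.87 CPM in edc-4 (log2 0.26, SE 0.15). On the other side of edc-3, snrp-27, ddx-52, paxt-1 and R05D11.9 had log2 differences of 0.00 to 0.12. Within 100 kb of edc-3 on either side 51 genes were tested and 1 was called, lmd-1; the others lay between −0.38 and 0.72. Since lmd-1 differed between strains that differ at edc-3, a change linked to the edc-3 locus and an effect of the EDC-3 protein cannot be told apart here.

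**Figure D3:**
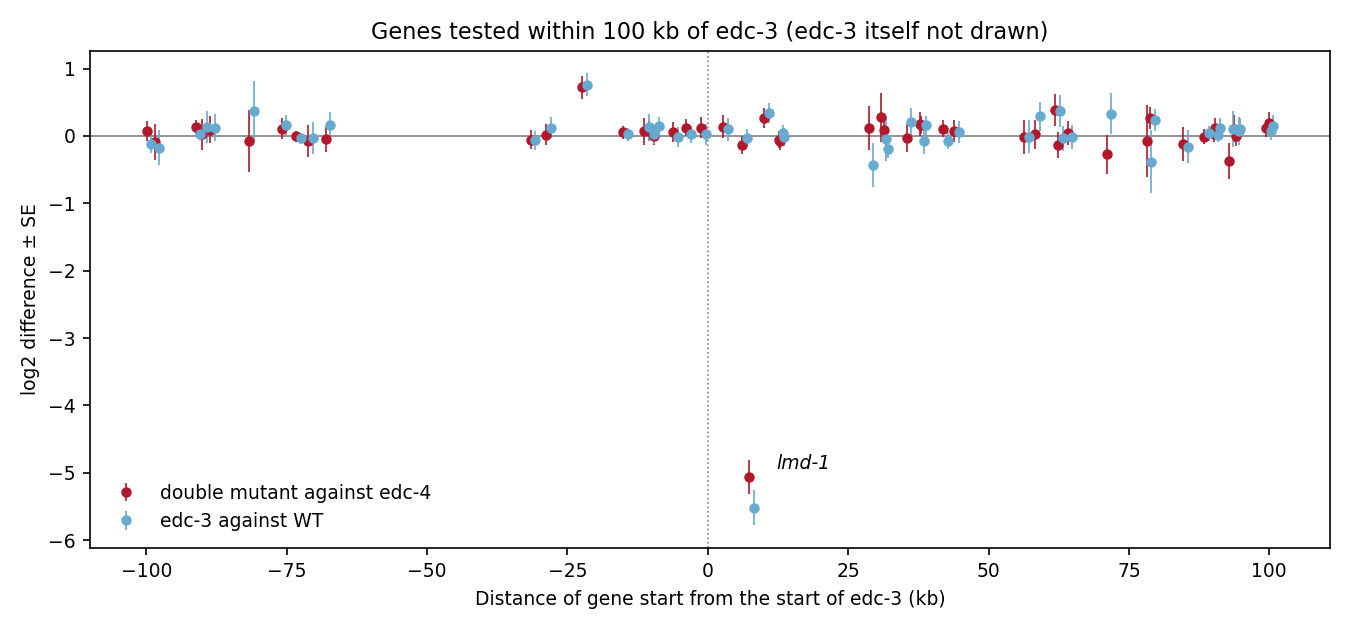
Log2 differences with SE of the genes tested within 100 kb of edc-3, by distance of each gene start from the start of edc-3 in kb, for the double mutant against edc-4 and for edc-3 against WT. One gene, lmd-1, lies near −5 in both comparisons, and rskn-1 at 0.72 is the highest of the others.

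The gene at the upper end of that window was rskn-1, a ribosomal S6 kinase homolog. It measured 57.7, 57.5, 46.8 and 53.7 CPM in the double mutant, against 35.3, 34.6, 33.1 and 28.01 CPM in edc-4. The groups did not overlap, and the log2 difference was 0.72 (SE 0.17, adjusted p = 0.63). Around edc-4, the 4 nearest tested genes on each side did not pass. On one side W01B11.6, ace-2, trx-4 and cdap-2 had log2 differences of −0.26, −0.12, −0.07 and −0.12. On the other side W05F2.7, W05F2.8, W05F2.2 and W05F2.3 had −0.05, −0.81, −0.34 and −0.28, where W05F2.8 averaged 0.755 ± 0.0931 CPM in the double mutant and 1.33 ± 0.270 CPM in edc-4.

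The small nucleolar RNA F59C6.15 (chromosome I, 10516978 to 10517150, minus strand) was the other gene that fell. It stood at 7.04, 6.93, 6.61 and 5.28 CPM in the double mutant, against 10.7, 16.1, 27.6 and 14.2 CPM in edc-4 (log2 −1.41, SE 0.21, adjusted p = 0.0155). The edc-4 libraries spread widely, with replicate 4 the highest, and without the libraries numbered 4 the difference was −1.11 and was still called. The call was lost without double mutant replicate 2, 3 or 5 (adjusted p up to 0.11). The same RNA was at 389 to 438 CPM in the 4 edc-3 libraries and 5.89 to 7.69 CPM in the 4 WT libraries, a rise of log2 5.96 in the other background. The test of the difference between the backgrounds gave a log2 interaction of −7.36 (SE 0.32, adjusted p = 1.22e-10). The double mutant, which carries the same edc-3 allele as the edc-3 strain, averaged 6.46 ± 0.811 CPM of this RNA, and WT averaged 6.77 ± 1.01 CPM (SD, n = 4 each).

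The third gene that rose was pals-26, of a family whose members pals-22 and pals-25 regulate the response to intracellular pathogens. It stood at 3.27, 3.32, 2.99 and 4.89 CPM in the double mutant, against 1.298, 1.16, 1.62 and 1.59 CPM in edc-4 (chromosome III, 4375154 to 4378907, plus strand). The rise was 2.56-fold (log2 1.35, SE 0.22, adjusted p = 0.0266), and its call was among the least stable: it was lost in 6 of the 8 fits that left out 1 library, with library totals in place of scaling factors (adjusted p = 0.142), and without the libraries numbered 4 (log2 1.49, adjusted p = 0.0617). It overlaps another annotated gene on the same strand. In edc-3 against WT its log2 difference was 0.37.

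Of 21 tested pals genes, 1 rose, none fell, 14 were positive and the median was 0.11. Without the libraries numbered 4 the median was −0.02, so its sign depended on them. The 2 regulators pals-22 and pals-25 were near 0, at 0.18 (SE 0.15) and 0.08 (SE 0.14). The low genes pals-39 and pals-37 had log2 differences of 1.99 (SE 0.66) and 1.103 (SE 0.51) at means of 0.391 ± 0.188 and 0.452 ± 0.204 CPM in the double mutant, against 0.108 ± 0.148 and 0.217 ± 0.120 CPM in edc-4. Without the libraries numbered 4 these differences were 3.05 and 1.52, at few counts a library. In the opposite direction pals-16 measured 2.60, 2.28, 2.57 and 2.38 CPM in the double mutant, against 4.55, 3.83, 2.91 and 3.89 CPM in edc-4 (log2 −0.63, SE 0.18). None of these 5 passed.

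For the 10 genes with the lowest adjusted p among those that did not pass, the 2 sets of libraries did not overlap, which holds for 2.1% of all tested genes and follows closely from how the 10 were chosen. They include egg-1, cyp-31A2, gfat-2 and rskn-1 above. The nearest to the threshold was ppw-2, an Argonaute of the endogenous small RNA pathway, at 27.6, 27.9, 17.8 and 26.8 CPM in the double mutant, against 15.7, 15.3, 11.9 and 13.5 CPM in edc-4 (log2 0.83, SE 0.16, adjusted p = 0.194). Replicate 4 was the low library of the double mutant, and without it the gene was called (log2 0.95, adjusted p = 0.0295). Replicate 4 was also the lowest edc-4 library. Without the libraries numbered 4 the gene was not called (edgeR, log2 0.87, adjusted p = 0.065), nor in any other fit that left out 1 library. With all libraries, DESeq2 called it (adjusted p = 0.0039). So did edgeR with the early zygotic and muscle levels as a covariate (adjusted p = 0.0061) and with no filter on low counts (adjusted p = 0.045).

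The polo-like kinase gene plk-3 held 17.6, 15.8, 16.9 and 21.6 CPM in the double mutant, against 6.18, 8.24, 8.25 and 5.72 CPM in edc-4 (log2 1.34, SE 0.30, adjusted p = 0.516). T04A8.7 averaged 51.6 ± 1.18 CPM in the double mutant and 36.3 ± 3.24 CPM in edc-4 (log2 0.51, SE 0.11, adjusted p = 0.366). Of the 10, 2 were lower in the double mutant. The scramblase homolog scrm-4 measured 3.32, 2.75, 3.43 and 2.102 CPM in the double mutant, against 5.72, 6.17, 9.02 and 7.53 CPM in edc-4 (log2 −1.29, SE 0.26, adjusted p = 0.243), and it overlaps kpc-1 on the other strand. Y102A5C.36 averaged 0.381 ± 0.0964 CPM in the double mutant and 1.07 ± 0.358 CPM in edc-4 (log2 −1.48, SE 0.29, adjusted p = 0.207). The last, C08F11.7, was a low gene, with 92 counts over the 4 double mutant libraries and 18 over the 4 edc-4 libraries (log2 2.53, SE 0.58, adjusted p = 0.55).

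The edc-3 allele was next followed in its other background. Edc-3 against WT had 24 genes called (0.142%), 16 higher (0.0948%) and 8 lower (0.0474%), in libraries independent of the main comparison. In both comparisons 4 genes were called, which is 80.0% of the 5 and 16.7% of the 24, and 3 of the 4 moved the same way: chs-1, egg-2 and lmd-1. The level of chs-1 was 79.1, 106, 87.7 and 56.5 CPM in edc-3, against 23.9, 21.6, 8.499 and 13.2 CPM in WT (log2 2.29). That of egg-2 was 23.8, 32.2, 27.96 and 16.99 CPM in edc-3, against 10.7, 10.1, 4.34 and 7.20 CPM in WT (log2 1.64). For egg-1 the values were 22.9, 31.6, 19.4 and 13.2 CPM in edc-3, against 9.45, 8.54, 2.15 and 4.30 CPM in WT (log2 1.83, called there).

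The interaction tested whether the allele's difference depended on edc-4(qe49). It was −0.10 (SE 0.35) for chs-1, 0.03 (SE 0.38) for egg-2, −0.28 (SE 0.47) for egg-1 and 0.45 (SE 0.35) for lmd-1, and none of the 4 passed. The SE leaves room for sizeable differences between the backgrounds for these genes. For rme-2 and lin-41 the interaction was −0.20 (SE 0.55) and −0.01 (SE 0.53), and for pals-26 it was 0.98 (SE 0.30, unadjusted p = 0.00474), which did not pass over all genes.

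Over the 12478 genes with a mean of at least 1 CPM, the 2 differences correlated with Pearson's r of 0.396 and Spearman's rho of 0.330 across genes, which are not independent replicates, and 62.0% had the same sign. Of the 271 genes higher at an unadjusted p under 0.05 in the double mutant, 202 (74.5%) were also positive in edc-3 against WT. Of the 203 lower genes, 153 (75.4%) were also negative there. Early zygotic levels also differed between libraries in both comparisons, at a mean log2 CPM of 3.71 ± 0.18 in edc-3 and 3.48 ± 0.26 in WT, and their part in these shares was not tested.

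**Figure D4:**
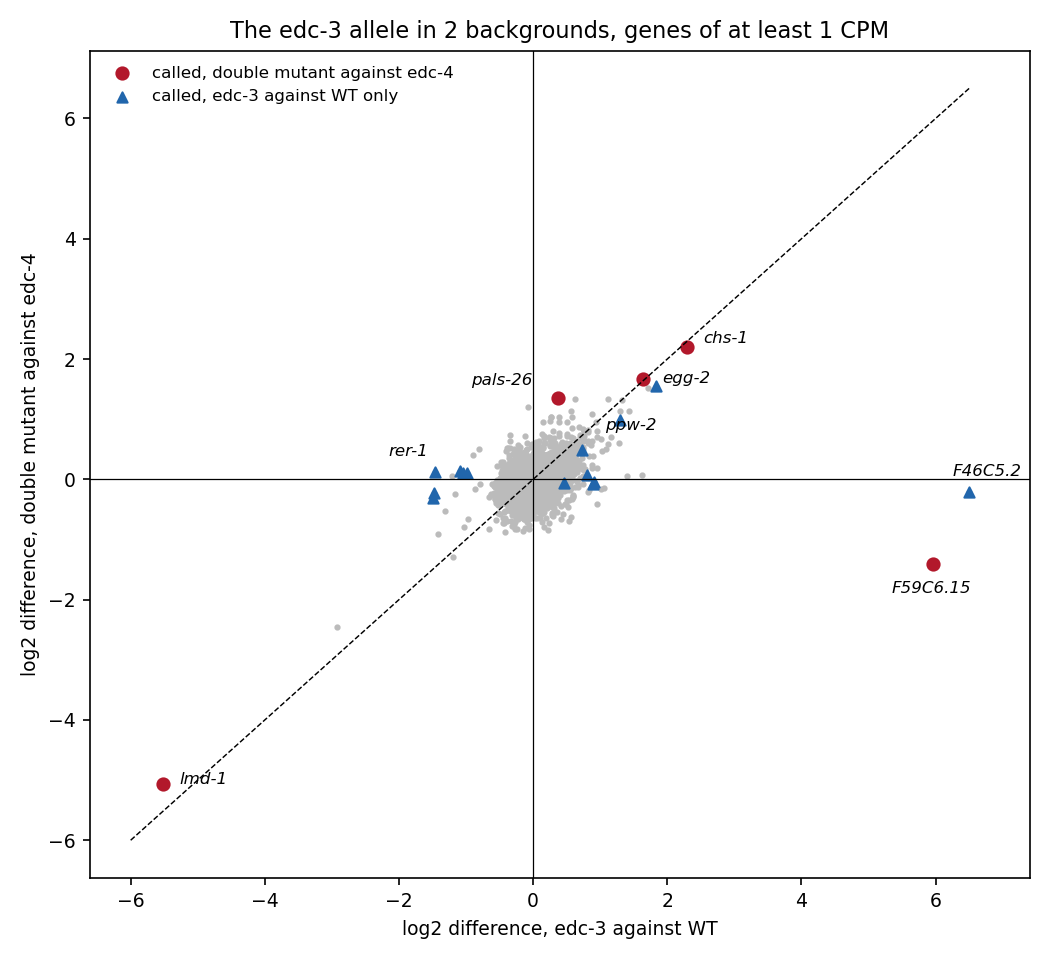
Log2 differences of genes with a mean of at least 1 CPM in the double mutant against edc-4 (vertical) and in edc-3 against WT (horizontal), with a dashed line of equal values. The points of chs-1, egg-2 and lmd-1 lie near the line, F59C6.15 lies far to the right and below 0, and F46C5.2 and rer-1 lie near 0 on the vertical axis only.

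In the interaction 6 genes were called (0.0355%), 2 with a positive (0.0118%) and 4 with a negative value (0.0237%). F59C6.15 was one. The other 5 lie on chromosome II, and for each the double mutant and edc-4 stood nearer to the level of edc-3 than to that of WT. The transcript of rer-1, a homolog of a factor that returns membrane proteins to the endoplasmic reticulum, averaged 61.2 ± 6.66 CPM in the double mutant and 56.4 ± 6.31 CPM in edc-4, against 53.9 ± 2.73 CPM in edc-3 and 149 ± 14.3 CPM in WT (log2 interaction 1.59, SE 0.15, adjusted p = 2.35e-05). T25D10.4 averaged 54.8 ± 2.29 CPM in the double mutant and 51.02 ± 2.88 CPM in edc-4, against 40.2 ± 3.58 CPM in edc-3 and 79.6 ± 8.97 CPM in WT (log2 interaction 1.09, SE 0.14).

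F46C5.2 averaged 3.76 ± 0.467 CPM in the double mutant and 4.37 ± 1.68 CPM in edc-4, against 4.76 ± 1.35 CPM in edc-3 and 0.0507 ± 0.0586 CPM in WT (log2 interaction −6.72, SE 0.60). Its neighbours F46C5.4 and nas-25 were likewise lowest in WT, with log2 interactions of −5.04 (SE 0.60) and −5.47 (SE 0.94). Their log2 differences in the double mutant against edc-4 were −0.19 and 0.01. The other chromosome II genes called in edc-3 against WT had log2 differences in the double mutant against edc-4 of −0.31 (appg-2), −0.22 (pho-13), 0.11 (F46C5.9), 0.17 (F46C5.7), 0.13 (T25D10.1) and 0.21 (K03H9.10), and none passed. Over the whole chromosome, 74 of 2900 genes (2.55%) had an unadjusted p under 0.05 in the double mutant against edc-4, near the 2.81% of all genes.

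On chromosome I, the adjacent genes abtm-1, eif-3.I, ddx-10 and Y23H5B.5 were also called in edc-3 against WT and had log2 differences of −0.06, −0.08, −0.04 and 0.07 in the double mutant against edc-4. The translation initiation factor subunit eif-3.I, for example, averaged 379 ± 35.8 CPM in the double mutant and 400 ± 33.1 CPM in edc-4. It averaged 373 ± 30.3 CPM in edc-3 and 200 ± 48.9 CPM in WT. For abtm-1, ddx-10 and Y23H5B.5, too, WT had the lowest mean of the genotypes, at 97.8, 190 and 148 CPM. The remaining genes called in edc-3 against WT were C18H2.2, C55C3.3 and Y51A2D.23, with log2 differences in the double mutant against edc-4 of 0.49 (SE 0.13), 0.11 (SE 0.42) and 0.96 (SE 0.82), none of which passed.

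No gene of the mRNA decay machinery passed. Of 18 tested decapping and 5′-to-3′ decay genes 6 were positive and the median was −0.02, both with and without the libraries numbered 4. The decapping enzyme dcap-2 averaged 99.6 ± 2.63 CPM in the double mutant and 96.0 ± 4.76 CPM in edc-4 (log2 0.05, SE 0.10), and its activator dcap-1 averaged 62.2 ± 4.05 CPM in the double mutant and 65.1 ± 5.97 CPM in edc-4 (log2 −0.07, SE 0.11). The 5′-to-3′ exonuclease gene xrn-1 and the decapping activator gene patr-1 had log2 differences of −0.03 (SE 0.09) and −0.01 (SE 0.14). The 6 tested genes of the LSM ring lay between −0.09 and 0.07.

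The largest difference in that list was that of cgh-1, whose human and yeast homologs bind EDC3, at 319, 309, 204 and 354 CPM in the double mutant, against 190, 232, 190 and 168 CPM in edc-4. Its log2 difference of 0.60 (SE 0.24) did not pass, and double mutant replicate 4 lay below edc-4 replicate 3. Without the libraries numbered 4 it was 0.72 and did not pass. The LSM14 homolog car-1, a partner of CGH-1, averaged 91.9 ± 25.4 CPM in the double mutant and 70.7 ± 14.1 CPM in edc-4 (log2 0.38, SE 0.24). None of the 12 deadenylation genes, 22 exosome and nonsense-mediated decay genes, 10 microRNA machinery genes or 20 germ granule genes passed, with medians of 0.02, 0.00, 0.07 and 0.01, and of 0.04, 0.01, 0.11 and 0.08 without the libraries numbered 4. Of 37 genes of the endogenous small RNA pathway, ppw-2 among them, none passed, 31 were positive and the median was 0.11 (0.14 without the libraries numbered 4).

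Of 23 cytosolic heat shock genes, 4 had an unadjusted p under 0.05, all higher in the double mutant, where 1.61% of all tested genes were higher. None passed, and the list's median was 0.17 (0.16 without the libraries numbered 4). The small heat shock gene hsp-16.2 measured 8.79, 5.08, 14.8 and 29.8 CPM in the double mutant, against 7.19, 4.81, 10.6 and 5.89 CPM in edc-4 (log2 1.04, SE 0.46). The inducible Hsp70 genes F44E5.4 and F44E5.5, near-identical copies, had log2 differences of 0.71 and 0.69 (SE 0.29 each), and hsp-70 of 1.14 (SE 0.49). For all 4 genes double mutant replicate 5 was the highest of the 8 libraries, and the 2 groups overlapped. Without that library the log2 differences were 0.42 for hsp-16.2, 0.47 for hsp-70, 0.39 for F44E5.4 and 0.43 for F44E5.5.

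Lists of differentiated tissue had medians below 0 and no member that passed: muscle −0.16 (7 of 39 positive), neurons −0.13 (5 of 35), intestine −0.25 (5 of 19) and epidermis and cuticle −0.07 (55 of 145). Ribosomal protein genes had a median of −0.15, with 4 of 80 positive, and nuclear-encoded respiratory chain genes of −0.07, with 9 of 43 positive. Early zygotic genes had a median of 0.05, with 35 of 49 positive. Without the libraries numbered 4 the medians were −0.19 for muscle, −0.14 for neurons, −0.26 for intestine, −0.11 for epidermis and cuticle, −0.20 for ribosomal proteins, −0.10 for the respiratory chain and 0.08 for early zygotic genes, where that of all genes was −0.02. In the fit with the early zygotic and muscle levels as a covariate the medians were 0.00 for neurons, 0.00 for epidermis and cuticle, −0.09 for intestine, −0.06 for ribosomal proteins and −0.09 for the respiratory chain; those of muscle and early zygotic genes, both 0.00, are fixed near 0 by the covariate's construction. Innate immune effectors (143 tested), detoxification enzymes (159), nuclear hormone receptors (224), F-box and MATH-BTB genes (362) and histones (67) had no member that passed, and medians of −0.08 to 0.03. Without the libraries numbered 4 the medians of these lists ran from −0.12 to 0.03.

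**Figure D5:**
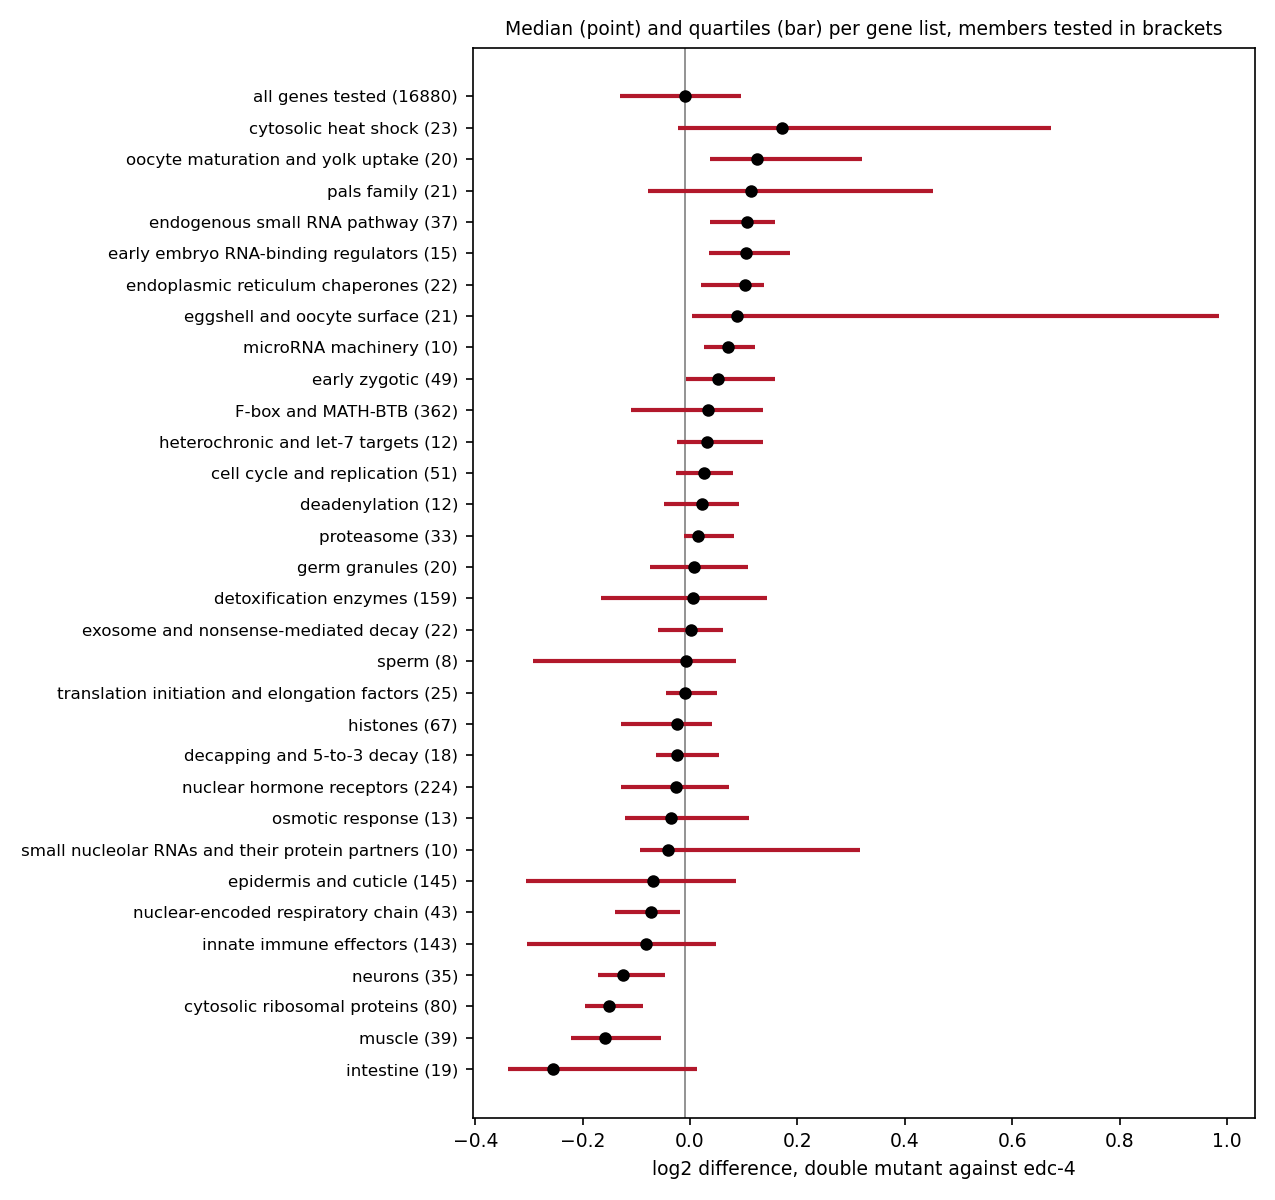
Median (point) and quartiles (bar) of the log2 difference in the double mutant against edc-4 for each gene list, with the number of members tested in brackets and all 16880 genes at the top. The eggshell list's bar reaches furthest to the right, to about 1 on the log2 scale, while its median is 0.09; muscle, intestine and ribosomal proteins lie left of the median of all genes.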

How the data were processed

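The authors sequenced stranded, rRNA-depleted total RNA. They deposited unnormalized read counts for each gene in each library, made with Trimmomatic, STAR and HTSeq on WBcel235, per the submitters' processing notes, which also name edgeR and limma. Which versions were used, and whether HTSeq counted by strand, is not stated there, so genes that overlap on opposite strands cannot be assumed to have been told apart. The table held 46726 genes, 12753 of them with 0 counts in every library. Symbols were matched by identifier for 43623 genes, and positions for 46364 from the Ensembl annotation of WBcel235. The table lists edc-4 as Y44E3A.6.

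The counts were tested in R 4.3.3 with edgeR 4.0.16. After filterByExpr (minimum count 10, minimum total 15), 16880 genes of all 16 libraries entered 1 quasi-likelihood fit with TMM factors and a mean per genotype. The contrasts were the double mutant minus edc-4, edc-3 minus WT, and the difference of these (the interaction). P-values were adjusted by Benjamini-Hochberg over all tested genes, and called under 0.05. CPM are TMM-scaled, log2 CPM used a prior count of 2, and the SE of a log2 difference was taken as its absolute value over the root of F. Gene lists were described by counts and medians, with no set test. Alternatives included DESeq2 1.42.0, other scalings, no filter, a replicate block and each library left out.

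Genes to name were taken from edc-3 and edc-4, every gene called in the double mutant against edc-4, in the interaction or in edc-3 against WT, the 10 lowest adjusted p that did not pass, the 4 tested neighbours on each side of both targets, and up to 2 members a list in each direction, of which those of the lists described are given. Other eggshell, oocyte, RNA-binding, decapping, heat shock and pals genes were named after their values were seen. The comparison, the lists and the members named were chosen with earlier results of these data known. The labels call the replicates independent biological replicates, and no 2 libraries held identical values.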

Additional observations from a re-analysis of the deposited data

Results flagged for a closer look

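Of 60 groups of 4 libraries examined, 3 had a value far from the others, and chance gives about 1 in 20. The ppw-2 level in double mutant replicate 4 was 17.8 CPM, against 26.8 to 27.9 CPM in the other double mutant libraries. The summed eggshell list in the same library was 1549 CPM, against 2092 to 2199 CPM in the other double mutant libraries. The egg-1 level in edc-4 replicate 3 was 11.6 CPM, against 7.38 to 7.63 CPM in the other edc-4 libraries.

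The difference between strains with and without edc-3(ok1427) was unlike in the edc-4 backgrounds for 6 genes. This is by the test of the interaction itself (edgeR, adjusted p under 0.05). Other differences between the strains cannot be told apart from the alleles here. The log2 interaction was −7.36 for F59C6.15, −6.72 for F46C5.2, −5.47 for nas-25, −5.04 for F46C5.4, 1.59 for rer-1 and 1.09 for T25D10.4. F59C6.15 was also called in the double mutant against edc-4, and the other 5 were not.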

How the results depend on the processing

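The 5 calls of the double mutant against edc-4 became 12 with no filter on low counts, 11 with DESeq2 and 8, edc-3 itself among them, with the early zygotic and muscle levels as a covariate. Leaving out 1 library gave 2 to 5 calls, with the 2 calls (chs-1 and lmd-1) without double mutant replicate 2, 3 or 5, and 3 without edc-4 replicate 2 or 5. The 4 fitted settings not listed, which were RLE scaling, library totals, removal of nuclear rRNA genes and leaving out the libraries numbered 4, gave 4 or 5 calls, as did the 8 compared libraries fitted alone, which lost pals-26, egg-2 and F59C6.15 and added egg-1 and plk-3. The 6 interaction calls became 10 with no filter, 17 with DESeq2 and 17 with the covariate, and 5 to 7 when 1 library was left out. The 24 calls of edc-3 against WT became 40 with no filter, 37 with DESeq2, 41 with the covariate, 14 with those 8 libraries alone and 14 to 24 when 1 library was left out. The edc-4 level in the double mutant against edc-4 reached an exact p of 0.0286 with library totals (log2 −0.35) and without double mutant replicate 3 (−0.39), and ranged from −0.39 to −0.19 with 1 library left out. That of edc-3 ranged from −0.41 to −0.22. The cause of these changes was not tested.

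Whether the replicate numbers paired the libraries cannot be decided from so few same-numbered pairs. The deviations of same-numbered libraries correlated at 0.247, 0.206, 0.656 and −0.054 for numbers 2 to 5, and not every library correlated best with its own number. With a replicate block the comparison kept all 5 calls, the interaction had 7 and edc-3 against WT had 26.

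Both chs-1 and lmd-1 were called in all 17 settings. Genes near 0 that were not called changed sign in the double mutant against edc-4 under some settings. The nas-25 difference was −0.042 with library totals, −0.0050 with no filter and −0.063 with the replicate block, and ranged from −0.22 to 0.199 with 1 library left out. That of gna-2 was 0.0597 and that of F46C5.7 −0.028 without the libraries numbered 4. With 1 library left out, gna-2 ranged from −0.176 to 0.176, F46C5.7 from −0.145 to 0.452, pos-1 from −0.236 to 0.084, oma-1 from −0.013 to 0.162, pho-13 from −0.376 to 0.051, F46C5.2 from −0.372 to 0.045, F46C5.9 from −0.036 to 0.277, C55C3.3 from −0.222 to 0.562, ddx-10 from −0.085 to 0.0096 and K03H9.10 from −0.0018 to 0.409.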

Other observations

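C38D9.2, named after its values were seen, was the one uncalled gene of at least 1 CPM with a log2 difference beyond 2 in size. It stood between 3.27 and 4.19 CPM in the 4 double mutant libraries, against 31.7, 4.67, 21.6 and 22.1 CPM in edc-4 replicates 2 to 5 (log2 −2.45, SE 0.93). In WT, replicate 3 held 110 CPM and the other 3 libraries 2.56 to 4.13 CPM, while the 4 edc-3 libraries held 3.17 to 4.38 CPM. High libraries occurred in both genotypes without the edc-3 allele, not in the genotypes with it, and not in every replicate of either.

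Among list members of low level, the immune effectors cnc-6 and lys-6 had log2 differences of 1.104 (SE 0.41) and −1.84 (SE 0.66), and the F-box genes fbxa-2 and fbxc-58 of −0.88 (SE 0.26) and 0.65 (SE 0.25). None passed over all genes. The neuropeptide-like antimicrobial gene nlp-29, known for its rise in osmotic stress and infection, averaged 8.14 ± 1.19 CPM in the double mutant and 5.76 ± 0.448 CPM in edc-4 (log2 0.50, SE 0.20), and did not pass either. The respiratory chain gene cox-7C averaged 121 ± 5.68 CPM in the double mutant and 142 ± 7.41 CPM in edc-4 without overlap (log2 −0.24, SE 0.09), and did not pass.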
